A study of Mus musculus with 6 samples.

Results

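Podocytes are the epithelial cells whose foot processes cover the outside of the glomerular capillaries, and 8 genes of their slit diaphragm and cytoskeleton, Nphs1, Wt1, Podxl, Synpo, Cd2ap, Actn4, Plce1 and Ptpro, were followed in whole kidneys of iron-deficient and control mice. The genes were chosen by their symbols, and all 8 passed the filter on low counts, among 15145 genes tested of 24422 with a row. RNA-seq had been made from 6 kidneys of wild type C57BL/6 pups at postnatal day 15 (P15). Dams of the control group (n = 3 kidneys) ate a diet with 220 ppm iron. Dams of the iron-deficient group (FeD, n = 3 kidneys) were given a synthetic diet that held 2 to 6 ppm iron. Both groups of dams were 8 weeks old when the diets began, were mated with C57BL/6 males after a month, and stayed on their diets until the pups were taken at P15. The model is dietary, so iron was restricted in the food of the dam and not in podocytes alone. Iron levels of these pups and their kidneys are not given here. The labels do not give the litter or the sex of a pup, so P values measure the spread between these 6 kidneys, and effects of litter and diet cannot be told apart.

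The slit diaphragm is the cell junction that spans the gap between neighbouring foot processes and forms the last layer of the glomerular filter. Nephrin, the product of Nphs1, is its main adhesion protein. CD2AP ties nephrin to the actin filaments of the foot process, which are bundled by alpha-actinin-4 (Actn4) and organised by synaptopodin (Synpo). Podocalyxin (Podxl) is the negatively charged sialomucin of the podocyte surface, and GLEPP1, encoded by Ptpro, is a receptor-type tyrosine phosphatase of the same membrane. Phospholipase C epsilon (Plce1) carries signals from the membrane in developing podocytes, and WT1 is the zinc finger transcription factor that maintains the podocyte programme. Inherited loss or mutation of NPHS1, WT1, PLCE1, CD2AP, ACTN4 and PTPRO is known to cause proteinuric kidney disease. Nphs1 is the member most restricted to podocytes within the kidney. Podxl is also used by endothelium, Wt1 by nephron progenitors and mesothelium, Cd2ap by tubule cells, and Actn4 by most cells.

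The 250 bases before the RefSeq start of Nphs1 and of Cd2ap are shown because these genes had different outcomes in the same kidneys, the first with overlapping groups and the second with FeD kidneys all above the controls. The sequences are those of RefSeq on the GRCm38.p6 build, a later build than the mm9 build of the counts, at chr7:30459808-30460057 on the plus strand for Nphs1 and chr17:42876425-42876674 on the minus strand for Cd2ap. Both are written 5′ to 3′ along the gene. Capitals mark matches to the letters GCGNGGGNG, the core bound by zinc finger proteins of the WT1 and EGR type, and to ACGTG or GCGTG, the core of hypoxia response elements, each searched on both strands.
Nphs1: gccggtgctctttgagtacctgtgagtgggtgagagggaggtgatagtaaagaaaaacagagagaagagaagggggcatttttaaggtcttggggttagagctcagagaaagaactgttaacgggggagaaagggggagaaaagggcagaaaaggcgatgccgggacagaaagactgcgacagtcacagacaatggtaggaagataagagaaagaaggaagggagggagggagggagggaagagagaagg
Cd2ap: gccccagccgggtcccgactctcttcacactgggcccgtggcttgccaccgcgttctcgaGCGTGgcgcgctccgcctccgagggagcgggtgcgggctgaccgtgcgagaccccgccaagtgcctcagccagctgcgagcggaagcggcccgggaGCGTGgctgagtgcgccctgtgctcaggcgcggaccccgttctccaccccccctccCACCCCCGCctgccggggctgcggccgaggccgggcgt
No match lay in the Nphs1 window, whose GC content was 50.8%. The Cd2ap window had a GC content of 76.4% and held 2 matches to GCGTG, which began 190 and 94 bases before the start. It also held 1 match to GCGNGGGNG on the opposite strand, 38 bases before the start. Such letters are common: among the windows of the same length before 32851 RefSeq starts, 10.5% held GCGNGGGNG and 38.6% held ACGTG or GCGTG, and the median GC content was 52.4%. Windows of 5 of the 8 members were searched, those of Nphs1, Cd2ap, Actn4, Plce1 and Ptpro. Wt1, Podxl and Synpo were left out of the search, so nothing is said of their windows. Actn4 held 2 matches to GCGNGGGNG and 1 to GCGTG, of which the GCGTG lay inside a GCGNGGGNG match, and Plce1 and Ptpro held none. The matches are letters in a window and not measured binding.

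Values are normalized counts, meaning counts scaled for library size by TMM and set to the mean size of the 6 libraries, and are given as mean ± SD with n = 3 per group. Totals ranged from 13732173 counts (FeD replicate 2) to 20853293 (FeD replicate 3). Replicates of the same group differed by more than counting noise, so all 6 were kept as separate samples. Defining markers of kidney were present in every library, including Umod of the thick ascending limb with at least 30321.3 normalized counts. Xist, which is transcribed from the inactive X chromosome of females, stood between 14237.6 and 16078.7 normalized counts in control replicates 1 and 2 and FeD replicate 3 and at no more than 48.0 in the others, and the Y-linked Ddx3y showed the opposite pattern. The part of this in the results was not tested.

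FeD was compared with control to ask whether iron restriction of the dam changed podocyte gene expression in the pup. Of the 8 members, 2 passed the test at an adjusted P under 0.05 (edgeR quasi-likelihood test, Benjamini-Hochberg over all genes tested), and both, Wt1 and Cd2ap, were higher in FeD kidneys. None was lower. Among all genes tested 45.7% passed, 22.4% as higher and 23.3% as lower, beside 25% of the members. Neither of the changed members reached 2-fold, a size with an adjusted P under 0.05 that 10% of all genes had. The groups of 3 kidneys did not overlap for the same 2 members, while they did not overlap for 58.1% of all genes tested. The median log2 fold change of the 8 members was -0.08 against -0.0018 over all genes, and the median size of the change, in either direction, was 0.13 against 0.32 on the log2 scale.

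**Figure D1:**
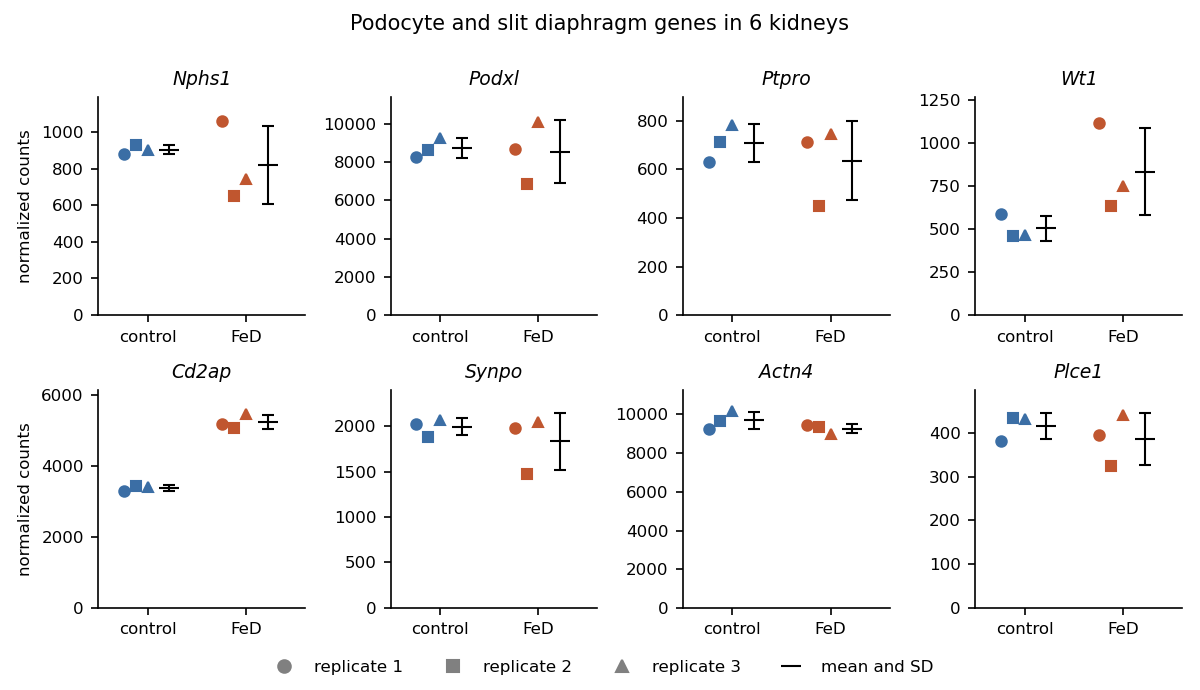
Normalized counts (vertical axes, each from 0) of the 8 members in each kidney, with control in blue and FeD in orange, symbols for replicate numbers, and bars for the mean and SD of 3 kidneys. The FeD kidneys lie above all control kidneys for Wt1 and Cd2ap, and FeD replicate 2 is the lowest of the 6 for Nphs1, Podxl, Ptpro, Synpo and Plce1.

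Nphs1, the gene of nephrin (chr7:31243334-31272242 on the plus strand of mm9), had 881.9, 931.5 and 899.5 normalized counts in control replicates 1 to 3 and 1058.8, 650.5 and 745.8 in FeD replicates 1 to 3. FeD replicate 1 was the highest of the 6 kidneys and the other two FeD kidneys were below every control, so the groups overlapped. The means were 904.3 ± 25.1 in control and 818.4 ± 213.6 in FeD, a fold change of 0.906 (95% interval 0.701 to 1.17) that did not pass the test (edgeR adjusted P = 0.50). The result leaned on single FeD kidneys. Without FeD replicate 1 Nphs1 passed as lower (log2 fold change -0.35, edgeR adjusted P = 0.023), and without FeD replicate 2 the log2 fold change was 0.02. The annotation places the antisense transcript Nphs1as over 11.3% of the exon bases of Nphs1. It had no row of its own, and without knowledge of the strand setting its reads cannot be told apart from those of Nphs1.

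Podxl (chr6:31469488-31513981, minus strand), the surface sialomucin, had 8238.2, 8652.1 and 9274.8 normalized counts in the control kidneys and 8687.4, 6843.8 and 10104.5 in the FeD kidneys. The lowest and the highest of the 6 values were both FeD. The means of 8721.7 ± 521.8 and 8545.3 ± 1635.0 gave a log2 fold change of -0.03 with a 95% interval from -0.34 to 0.28 (edgeR adjusted P = 0.88). Podxl is shared with endothelium, where 7 of 10 listed markers fell and 2 rose, so that 90% passed against 45.7% of all genes. The summed level of these 10 genes was 944.4 to 968.1 CPM in control kidneys and 620.9 to 860.0 in FeD kidneys. For summed levels, CPM are counts scaled to the library size after TMM. The largest falls with enough counts were those of Esm1 and Emcn, with log2 fold changes of -2.17 and -1.04 (edgeR adjusted P = 0.00019 and 0.00015). Flt1, a VEGF receptor, had a log2 fold change of 0.45 (edgeR adjusted P = 0.033) and passed in 9 of 13 alternative fits, losing its call without control replicate 1, 2 or 3 or FeD replicate 2 (adjusted P from 0.055 to 0.11). The part of endothelial RNA in the Podxl value was not tested. In whole kidney, fewer cells of a type and less RNA per cell cannot be told apart.

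Ptpro (chr6:137200820-137413150, plus strand), the phosphatase GLEPP1, had 628.8, 711.3 and 784.7 normalized counts in the control kidneys and 712.9, 449.2 and 744.9 in the FeD kidneys. A single FeD kidney, replicate 2, was below the control range. The means were 708.3 ± 78.0 and 635.7 ± 162.3, with a log2 fold change of -0.15 and a 95% interval from -0.57 to 0.27 (edgeR adjusted P = 0.52).

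Cd2ap (chr17:42929900-43013373, minus strand), the adapter between nephrin and actin, had the most even values of the 2 changed members. It had 3288.0, 3452.6 and 3408.3 normalized counts in the control kidneys and 5176.1, 5076.7 and 5477.0 in the FeD kidneys. Every FeD kidney was above every control kidney, and the gap between the groups was wider than the spread within either. The mean rose from 3383.0 ± 85.2 to 5243.2 ± 208.4, 1.55-fold with a 95% interval of 1.40 to 1.71 (log2 fold change 0.63, SE 0.06, edgeR adjusted P = 0.00018). The log2 fold change stayed between 0.61 and 0.68 whichever kidney was left out. Cd2ap is also used by tubule cells, including those of the collecting duct. Of 10 tubule markers 7 fell, 1 rose and 2 did not pass, so that 80% passed against 45.7% of all genes. Their summed level was 14297.8 to 15730.8 CPM in control kidneys and 8538.9 to 12081.4 in FeD kidneys. The 1 that rose was Aqp2, the water channel of collecting duct principal cells, at 12450.6 ± 3564.7 normalized counts in control and 27244.2 ± 8633.9 in FeD kidneys (edgeR adjusted P = 0.0093). The largest falls were those of the proximal tubule genes Slc5a2, a glucose transporter, and Slc34a1, a phosphate transporter, with log2 fold changes of -4.89 and -2.22 (edgeR adjusted P = 3.3e-06 and 1.7e-05). The part of tubule RNA in the Cd2ap result was not tested.

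Synpo (chr18:60753627-60819796, minus strand), the actin-associated protein of the foot process, had 2025.5, 1885.1 and 2066.7 normalized counts in the control kidneys and 1978.6, 1471.1 and 2043.2 in the FeD kidneys. FeD replicates 1 and 3 lay within the control range and FeD replicate 2 below it. The log2 fold change was -0.12 with a 95% interval from -0.39 to 0.15 (edgeR adjusted P = 0.43).

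Actn4 (chr7:29678267-29747359, minus strand), the actin bundler that most cells use, had 9264.8, 9635.5 and 10173.4 normalized counts in the control kidneys and 9450.3, 9343.2 and 8997.1 in the FeD kidneys. It was the only member with a smaller spread in FeD than in control, at a coefficient of variation of 2.56% against 4.71%. The log2 fold change was -0.07 with a 95% interval from -0.23 to 0.10 (edgeR adjusted P = 0.48). Capn12 overlaps 6.73% of its exon bases on the opposite strand but had only 4 to 9 counts per library.

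Plce1 (chr19:38598687-38859588, plus strand), the phospholipase, had 381.5, 433.7 and 430.6 normalized counts in the control kidneys and 395.9, 323.3 and 441.1 in the FeD kidneys. The FeD kidneys spanned the control range on both sides. The log2 fold change was -0.10 with a 95% interval from -0.38 to 0.19 (edgeR adjusted P = 0.55).

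Wt1 (chr2:104966686-105013773, plus strand), the transcription factor among the members, had 588.6, 456.9 and 464.4 normalized counts in the control kidneys and 1114.8, 632.3 and 751.8 in the FeD kidneys. All FeD kidneys were above all controls, but the lowest FeD kidney was close to the highest control and FeD replicate 1 was far above the rest. The mean rose from 503.3 ± 74.0 to 833.0 ± 251.3, 1.66-fold with a 95% interval of 1.20 to 2.29 (log2 fold change 0.73, SE 0.20, edgeR adjusted P = 0.020). Without control replicate 2 or control replicate 3 it no longer passed (log2 fold changes 0.66 and 0.67, edgeR adjusted P = 0.077 in each case). Of the other cells that use Wt1, the nephron progenitors are defined by Six2, which was near the floor with 3, 4 and 4 raw counts in control and 3, 8 and 6 in FeD kidneys. The summed level of the 5 progenitor markers tested, which leaves out Six2, was 25.7 to 27.9 CPM in control and 16.2 to 21.5 in FeD kidneys. Of these 5 markers 60% passed, against 45.7% of all genes. Although the sum was lower, 2 of them rose, Eya1 and Gdnf, both at low counts, with log2 fold changes of 1.92 and 1.47 (edgeR adjusted P = 0.015 and 0.034). The most abundant of them, Meox1, fell with a log2 fold change of -0.995 (edgeR adjusted P = 0.00048). The 4 mesothelial markers summed to 154.8 to 160.6 CPM in control and 107.4 to 146.2 in FeD kidneys. Of these, 1 was higher, 1 was lower and 2 did not pass, so that 50% passed against 45.7% of all genes. Most of the mesothelial sum was Gpm6a, which did not pass (edgeR adjusted P = 0.054), while Upk3b fell with a log2 fold change of -0.84 (edgeR adjusted P = 0.0032) and Msln had one of 0.32 (edgeR adjusted P = 0.026, but above the threshold in 5 of 13 alternative fits). Among other cell types of the glomerulus, the 6 parietal epithelial markers summed to 748.0 to 807.1 CPM in control and 918.5 to 1261.0 in FeD kidneys. The part of these or any other cell types in the Wt1 result was not tested. The antisense gene Wt1os had 30 to 47 raw counts in control and 18 to 40 in FeD kidneys and did not pass (edgeR adjusted P = 0.37).

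The ratio of each member to Nphs1 within a kidney does not depend on scaling between libraries. The ratio of Wt1 to Nphs1 was 0.667, 0.490 and 0.516 in the control kidneys and 1.05, 0.972 and 1.01 in the FeD kidneys. Although both genes varied widely among FeD kidneys, their ratio was nearly the same in the 3, with an SD of 0.06 on the log2 scale against 0.24 in control. The ratio of Cd2ap to Nphs1 was 3.73, 3.71 and 3.79 in the control kidneys and 4.89, 7.80 and 7.34 in the FeD kidneys. Here the control kidneys were the even ones, with an SD of 0.02 on the log2 scale against 0.37 in FeD. The mean log2 ratio was higher in FeD by 0.87 for Wt1 and by 0.81 for Cd2ap, and for both the groups did not overlap. How often the groups do not overlap for ratios of other genes to Nphs1 was not computed. For levels of single genes they did not overlap for 58.1% of all genes tested. With 3 kidneys against 3 the exact two-sided permutation test cannot give a P below 0.10, and it gave 0.10 for each (0.35 after Benjamini-Hochberg adjustment over the 7 ratios). For Podxl, Synpo, Actn4, Plce1 and Ptpro the groups overlapped, with mean differences between -0.01 and 0.13 on the log2 scale (exact permutation P from 0.70 to 1).

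**Figure D2:**
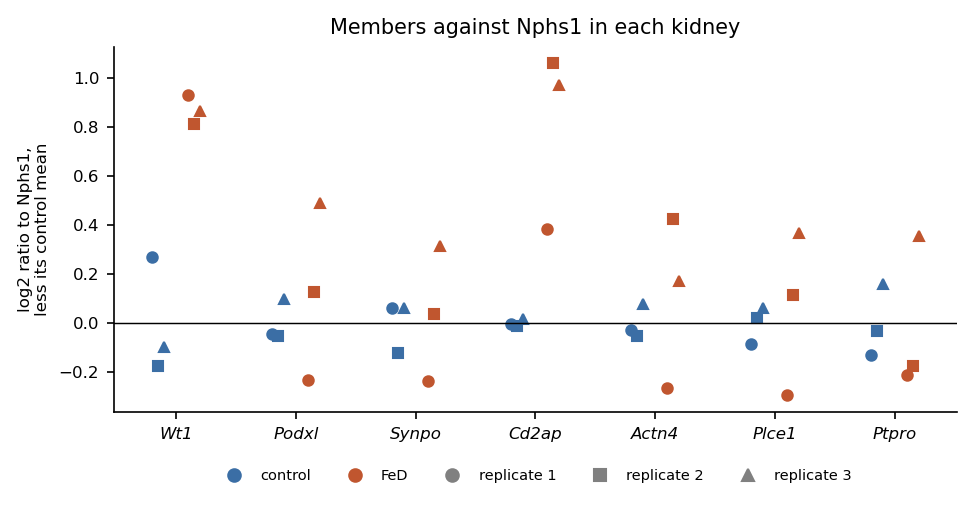
Log2 ratio of each of 7 members to Nphs1 in each kidney, less the mean of the control kidneys (vertical axis, 0 at the control mean), with control in blue, FeD in orange and symbols for replicate numbers. All FeD points lie above the control points for Wt1 and Cd2ap only, and the 3 FeD points for Wt1 lie close together.

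Spread among kidneys was measured as well. The coefficient of variation of normalized counts had a median over the 8 members of 5.38% in control and 18.1% in FeD kidneys. Over all genes tested the medians were 5.98% and 11%, and over 57 other podocyte genes they were 6.03% and 13.2%. Wt1 had the largest value of the members in both groups, at 14.7% in control and 30.2% in FeD kidneys. Nphs1 went from 2.78% to 26.1%, Ptpro from 11% to 25.5% and Podxl from 5.98% to 19.1%. Synpo went from 4.78% to 17.1% and Plce1 from 7.05% to 15.4%, whereas Cd2ap had 2.52% and 3.97% and Actn4 fell from 4.71% to 2.56%. Of all genes tested, 87.5% had a lower coefficient of variation in FeD kidneys than Wt1, 84.1% than Nphs1, 83.5% than Ptpro and 74.5% than Podxl. The share was 70.4% for Synpo, 65.9% for Plce1, 10.9% for Cd2ap and 4.64% for Actn4. No test was made of these spreads, which rest on 3 kidneys each. FeD replicate 2 had the lowest value of the 6 kidneys for 5 of the 8 members, for 17 of the 57 other podocyte genes and for 21.0% of all genes tested. This library also had the smallest total count. FeD replicate 1 had the highest value for Nphs1 and Wt1, and FeD replicate 3 for Podxl, Cd2ap and Plce1, so no single FeD kidney was high for all members.

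Levels of different genes were compared as RPKM, meaning counts divided by exon length and by the library total. In control kidneys Actn4 was highest at 107.9 ± 3.4, followed by Podxl at 88.9 ± 3.9, Cd2ap at 35.1 ± 0.55, Synpo at 11.7 ± 0.58, Nphs1 at 9.59 ± 0.23, Ptpro at 5.78 ± 0.55, Wt1 at 4.56 ± 0.74 and Plce1 at 2.43 ± 0.14 (SD, n = 3). Ptpro and Wt1 were the only neighbours in this order whose control kidneys overlapped. Actn4, Podxl and Cd2ap, which other kidney cells also use, headed the order, and Nphs1 stood below Synpo. In FeD kidneys Wt1, at 7.52 ± 2.29, stood above Ptpro, at 5.19 ± 1.31, but their kidneys overlapped, as did those of Actn4 and Podxl, of Synpo and Nphs1, and of Nphs1 and Wt1. Cd2ap kept its place at 54.3 ± 1.9. Of the summed level per kilobase of the 8 members, Cd2ap made up 13.2% ± 0.43 in control and 19.5% ± 1.1 in FeD kidneys, and Wt1 1.72% ± 0.32 and 2.68% ± 0.70. Actn4 went from 40.6% ± 0.17 to 37.2% ± 3.6 and Nphs1 from 3.61% ± 0.16 to 3.10% ± 0.69. Shares sum to a fixed whole, so a larger share of Cd2ap leaves smaller shares for the rest.

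A further 57 genes of the podocyte and its basement membrane, in 5 lists by role, were all tested. Of these 12 rose, 10 fell and 35 did not pass, and 38.6% passed against 45.7% of all genes. Their median log2 fold change was -0.04 against -0.0018 over all genes. The groups did not overlap for 27 of the 57 (47.4%), against 58.1% of all genes.

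**Figure D3:**
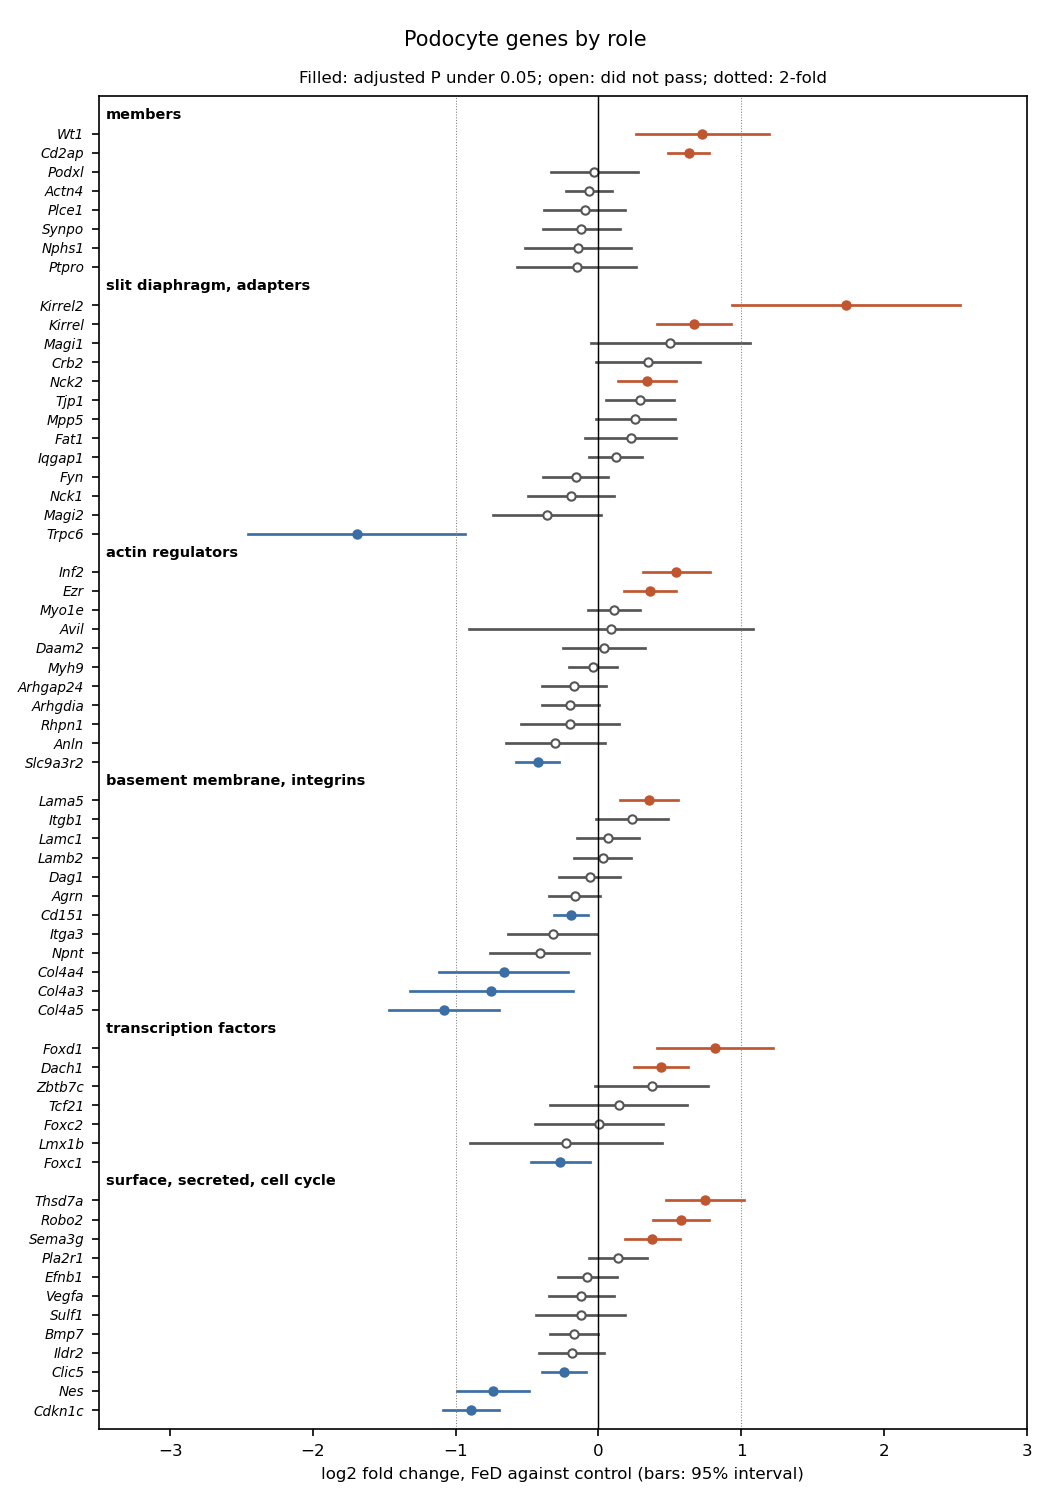
Log2 fold change of FeD against control (horizontal axis) with its 95% interval for the 8 members and 55 other podocyte genes, ordered within each role by size. Filled points passed at an adjusted P under 0.05, in orange where higher and blue where lower, open points did not pass, and dotted lines mark 2-fold. Among the members Wt1 and Cd2ap are filled and the other 6 intervals cross 0.

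Of 14 other slit diaphragm proteins and adapters, 3 rose, 1 fell and 10 did not pass, with a median log2 fold change of 0.24. The share that passed was 28.6%, against 45.7% of all genes. Kirrel, the gene of the nephrin partner NEPH1, had 1010.4, 1044.3 and 1148.6 normalized counts in control and 1471.7, 1628.2 and 1994.0 in FeD kidneys, and rose 1.59-fold (log2 fold change 0.67, edgeR adjusted P = 0.002). It passed in all 13 alternative fits. Nck2, an adapter that binds phosphorylated nephrin, rose with a log2 fold change of 0.34 (edgeR adjusted P = 0.015, and 0.052 and 0.068 without control replicates 1 and 2). Outside the naming rule because of their low counts were the other 2 that passed, Kirrel2, at 9.68 ± 1.6 normalized counts in control and 32.4 ± 11 in FeD kidneys, and Trpc6, a calcium channel, at 38.4 ± 7.5 and 12 ± 4.5. Magi1, Magi2, Crb2, Fyn, Nck1, Fat1, Iqgap1 and Mpp5 did not pass. Tjp1 did not pass either (log2 fold change 0.29, edgeR adjusted P = 0.051), but it passed in 6 of 13 alternative fits, among them DESeq2 (adjusted P = 0.028).

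Among 11 actin regulators 2 rose, 1 fell and 8 did not pass, so that 27.3% passed against 45.7% of all genes. Inf2, a formin that nucleates and severs actin filaments, went from 750.7 ± 40.4 to 1097.2 ± 139.2 normalized counts (log2 fold change 0.55, edgeR adjusted P = 0.0034). Ezr encodes ezrin and Slc9a3r2 encodes NHERF2, the proteins that link podocalyxin to actin. They went opposite ways, Ezr rising with a log2 fold change of 0.36 (edgeR adjusted P = 0.0074) and Slc9a3r2 falling with one of -0.43 (edgeR adjusted P = 0.0013).

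The basement membrane and integrin list had 1 of 12 genes higher and 4 lower, with 7 that did not pass. The share that passed was 41.7%, against 45.7% of all genes. Col4a3, Col4a4 and Col4a5 encode the chains of the mature collagen IV network of the glomerular basement membrane, which podocytes make, and some tubule segments express them too. Col4a5 had 6766.7, 5903.0 and 6751.7 normalized counts in control and 2525.5, 2643.5 and 4001.8 in FeD kidneys, and fell with a log2 fold change of -1.08 (edgeR adjusted P = 0.0014). Col4a3 had 11212.7, 10305.9 and 12217.0 in control and 5574.0, 4602.8 and 9854.2 in FeD kidneys (log2 fold change -0.75, edgeR adjusted P = 0.038). Col4a4 had 9439.3, 8514.9 and 10050.6 in control and 5150.1, 4483.3 and 8043.2 in FeD kidneys (log2 fold change -0.66, edgeR adjusted P = 0.025). For all 3 the highest FeD kidney was replicate 3, and every FeD kidney was below every control. Col4a3 lost its call with DESeq2 (adjusted P = 0.091) and without any 1 of control replicates 1, 2 and 3 or FeD replicates 1 and 2 (edgeR adjusted P from 0.072 to 0.14). Col4a4 lost its call with DESeq2 (adjusted P = 0.052) and without control replicate 1 or 3 or FeD replicate 1 or 2 (edgeR adjusted P from 0.064 to 0.099). Lama5, the alpha chain of the laminin in the same membrane, rose with a log2 fold change of 0.35 (edgeR adjusted P = 0.012, and 0.058 and 0.068 without control replicates 1 and 2).

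**Figure D4:**
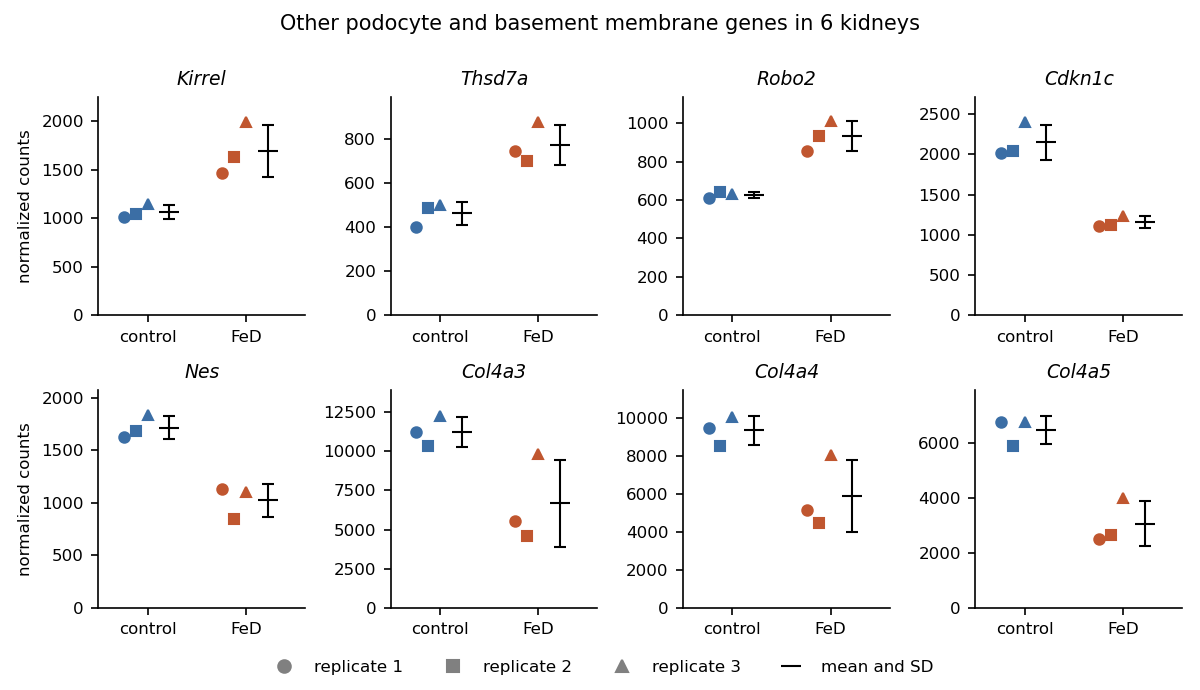
Normalized counts (vertical axes, each from 0) of 8 other podocyte and basement membrane genes in each kidney, with control in blue, FeD in orange, symbols for replicate numbers and bars for the mean and SD of 3 kidneys. FeD kidneys are higher for Kirrel, Thsd7a and Robo2, and FeD kidneys are lower for Cdkn1c, Nes, Col4a3, Col4a4 and Col4a5.

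Of 8 podocyte transcription factors, 3 rose, 1 fell and 4 did not pass, so that 50% passed against 45.7% of all genes. Foxd1, a factor of renal stroma that podocytes also use, went from 65.3 ± 7.3 to 115.2 ± 15.6 normalized counts (log2 fold change 0.82, edgeR adjusted P = 0.0064). Foxc1 had a log2 fold change of -0.27 (edgeR adjusted P = 0.040) and did not pass in 7 of 13 alternative fits (adjusted P from 0.051 to 0.14). Tcf21 and Lmx1b, both needed for podocyte differentiation, did not pass, with log2 fold changes of 0.14 and -0.23 (edgeR adjusted P = 0.61 and 0.55).

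Among 12 surface, secreted and cell cycle genes, 3 rose, 3 fell and 6 did not pass, so that 50% passed against 45.7% of all genes. Cdkn1c encodes p57, the cell cycle inhibitor of mature podocytes. It had 2015.9, 2037.7 and 2399.4 normalized counts in control and 1109.8, 1127.0 and 1238.7 in FeD kidneys, and fell with a log2 fold change of -0.89 (edgeR adjusted P = 0.00015). Nes, which encodes the intermediate filament protein nestin, fell from 1713.8 ± 107.4 to 1025.7 ± 156.7 normalized counts (log2 fold change -0.74, edgeR adjusted P = 0.0012). Thsd7a, a foot process membrane protein, rose from 463.3 ± 53.2 to 776.0 ± 91.4 (log2 fold change 0.75, edgeR adjusted P = 0.0016), and Robo2, a receptor that binds nephrin through NCK, rose with a log2 fold change of 0.58 (edgeR adjusted P = 0.0011). Vegfa, the growth factor by which podocytes sustain glomerular endothelium, did not pass (log2 fold change -0.12, edgeR adjusted P = 0.35). Its receptor Kdr, in endothelium, fell from 2062.3 ± 152.7 to 1375.4 ± 196.5 normalized counts (log2 fold change -0.59, edgeR adjusted P = 0.0026). The Vegfa value is that of the whole kidney, and the part of cells other than podocytes in it was not tested.

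Markers of the other glomerular cells were measured in the same kidneys. Of 8 mesangial and pericyte markers 3 rose, 3 fell and 2 did not pass, so that 75% passed against 45.7% of all genes. Their summed level was 626.6 to 662.9 CPM in control and 989.8 to 1278.0 in FeD kidneys. Most of the difference between these sums was 1 pericyte gene, Rgs5, whose mean went from 3353.6 to 11130.3 normalized counts (log2 fold change 1.73, edgeR adjusted P = 3.5e-05). Pdgfrb, the receptor that recruits mesangial cells, went from 3382.1 ± 244.8 to 5097.6 ± 738.5 normalized counts (log2 fold change 0.59, edgeR adjusted P = 0.003). Des and Itga8, an intermediate filament and an integrin of mesangial cells, fell with log2 fold changes of -1.45 and -1.17 (edgeR adjusted P = 0.00014 and 0.0021). Of 6 parietal epithelial markers 2 rose, Akap12 and Cldn1, with log2 fold changes of 1.43 and 1.31 (edgeR adjusted P = 6.3e-05 and 2.1e-05), none fell and 4 did not pass, so that 33.3% passed against 45.7% of all genes. Outside the glomerulus, 2 of 5 leukocyte markers tested rose, 2 fell and 1 did not pass, so that 80% passed against 45.7% of all genes. Among them were the macrophage genes Cd68, with a log2 fold change of 1.12 (edgeR adjusted P = 0.001), and Csf1r, with one of -0.45 (edgeR adjusted P = 0.006). Of the 2 red cell markers tested, Slc4a1 fell with a log2 fold change of -1.42 (edgeR adjusted P = 0.0051) and the other did not pass. The 5 genes that differ between the sexes did not pass. The part of these cells in the results for the 8 members was not tested.

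The genes whose pattern over the 6 kidneys was most like that of Nphs1 were found by the root mean square difference of log2 values, each gene centred on its own mean. The candidates were 12925 genes outside the 8 members whose mean normalized count was 50 or more. The 5 nearest were Slc26a10, Tmub1, Alkbh4, Gipc1 and Ctu2, at 0.08 to 0.09 on the log2 scale, where the median over all candidates was 0.30. Synpo was the nearest member at 0.17, followed by Plce1, Ptpro, Actn4 and Podxl at 0.20 to 0.22, and Cd2ap and Wt1 lay farthest at 0.46. There were 516 genes nearer to Nphs1 than Synpo, 1322 to 2431 nearer than Plce1, Ptpro, Actn4 and Podxl, and 10664 and 10686 nearer than Cd2ap and Wt1.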

How the data were processed

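Polyadenylated RNA of 3 control and 3 FeD kidneys had been sequenced as single-end reads of 100 bases. Per the labels and the study's methods, the authors trimmed reads with Trimmomatic, aligned them to mm9 with TopHat2 2.0.11, kept uniquely mapped reads and deposited raw counts per gene from HTSeq, without normalization or pooling. The gene annotation, counting mode and strand setting are not given in the sources used here.

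Groups and replicate numbers came from the labels. The members and gene lists were chosen with earlier results of these data known. The deposited counts were tested with edgeR 4.0.16 in R 4.3.3 (filterByExpr, TMM, quasi-likelihood test, Benjamini-Hochberg adjustment over 15145 genes, diet as the only term), after the procedure was tested on simulated data. Standard errors of log2 fold changes were derived from the F statistic. Ratios were tested by the exact permutation test. Exon lengths and positions came from GENCODE on NCBIM37 (mm9), and promoter sequences from RefSeq.

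The genes named were taken from the 8 members; in each other list the 2 largest rises and falls among those that passed with 50 or more normalized counts on average; Kirrel, Tcf21, Lmx1b, Col4a3, Col4a4, Cdkn1c, Vegfa, Kdr, Pdgfrb, Six2, Slc34a1, Umod and Aqp2 always; and the 5 genes nearest to Nphs1 in pattern. Some genes of the lists are counted but not reported here by name, among them Ptprc, which passed. Genes named beyond these were chosen after their values were seen.

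Library totals ranged from 13732173 to 20853293 counts. A floor of 3 counts equalled 0.144 to 0.218 CPM (here counts scaled to the library total, without TMM) and covers counting error only. Alternatives were DESeq2 1.42.0, its size factors or library size alone, the 50 most counted genes left out before normalization, other filters on low counts, the replicate number as a term, each kidney left out, and other lengths or scales for levels.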

Additional observations from a re-analysis of the deposited data

How the results depend on the processing

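Of 104 fits of a single member under 13 alternatives, 95 kept the direction and the side of the threshold, 1 became significant, 2 lost significance and 6 changed direction, all of them among fits that left out 1 kidney. The number of members called was 2 in each of the 7 alternatives that kept all 6 kidneys and ranged from 1 to 3 over the 6 that left one out. Wt1 lost its call without control replicate 2 or 3 (log2 fold changes 0.66 and 0.67, edgeR adjusted P = 0.077), and Nphs1 gained one without FeD replicate 1. Without FeD replicate 2 the log2 fold change was 0.015 for Nphs1, 0.13 for Podxl, 0.034 for Synpo, 0.034 for Plce1 and 0.063 for Ptpro, each with the opposite sign to the value from all 6 kidneys, and without control replicate 3 that of Podxl was 0.016. Over the kidneys left out in turn it ranged from -0.35 to 0.02 for Nphs1, from -0.15 to 0.13 for Podxl, from -0.19 to 0.03 for Synpo, from -0.19 to 0.03 for Plce1 and from -0.26 to 0.06 for Ptpro. The cause was not tested. The log2 ratio of Cd2ap to Nphs1 was higher in FeD by 0.68 to 1.02 and that of Wt1 by 0.78 to 1.01. The 57 other podocyte genes had 21 to 24 called in the alternatives that kept all 6 kidneys and 15 to 29 in those that left one out, against 22. With the longest transcript as length Nphs1 and Wt1 exchanged places and 6 of 8 members kept their rank by mean level.

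With the replicate number as a block, 2 members, 24 of the other podocyte genes and 6444 of all genes passed. The deviations of same-numbered kidneys had correlations of -0.16, 0.00 and -0.04 over genes, and those of kidneys with different numbers -0.09 to 0.16. With 3 kidneys a group these values cannot show whether same-numbered kidneys shared more than a number. For the 6 members that did not pass, the 95% intervals give the changes that remain possible with 3 kidneys a group.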
